A study of Mus musculus with 6 samples.

Results

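The Notch receptors Notch1 to Notch4, the ligands Jag1, Jag2, Dll1 and Dll4, and the receptor-modifying enzyme gene Lfng were followed as a set of 9 genes, taken by symbol from a table of 16906 genes. All 9 carried the gene identifier that RefSeq pairs with their symbol, and all 9 passed the filter on low counts. RNA came from bone-marrow-derived macrophages (BMDMs) of wild-type C57BL/6 mice, differentiated over 7 days in 10% fetal bovine serum and 10 ng/ml of the growth factor M-CSF. Every culture then received epithelial cell exosomes, which are small secreted vesicles, at 100 µg/ml for 12 h. In the 3 stretched libraries the donor epithelial cells had been cyclically stretched for 6 h, and in the 3 static libraries they had not. No library without exosomes was analysed here, so each value stands relative to exosomes of unstretched cells. Nothing in the labels ties the replicates to different mice or dishes, and the p-values therefore measure the spread between these libraries, which may be technical.

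Notch signalling passes between touching cells. A Jagged or Delta ligand on one cell binds a Notch receptor on its neighbour, the receptor is cut by an ADAM protease and then by gamma-secretase, and the freed intracellular part joins the DNA-binding protein RBPJ to switch on target genes such as those of the HES and HEY families. Fringe enzymes, of which Lfng encodes one, extend sugar chains on the receptors and so alter which ligands they answer to, in general favouring Delta over Jagged ligands. In the myeloid lineage Notch2 is best known for its part in the development of certain dendritic cells and monocyte subsets. The series title names Notch2 together with Socs1, a feedback inhibitor of cytokine signalling.

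The libraries held 16984561 to 17625991 estimated counts. The macrophage genes Csf1r, Adgre1, Cd68 and C1qa were high in every library, and the 8 macrophage markers summed to 7398, 7985 and 8374 CPM in the stretched group and 9091, 9292 and 9365 CPM in the static group. CPM are counts scaled to a common library size, here with TMM factors that correct for differences in library composition. Markers of other cells were present too: stromal or mural markers summed to 3942 to 7080 CPM, neutrophil markers to 2197 to 7412 CPM and endothelial markers to 146 to 396 CPM. The neutrophil sum was highest in replicate 3 of each group, at 4868 CPM in stretched 3 against 2428 and 2758 CPM, and at 7412 CPM in static 3 against 2197 and 2962 CPM. These are bulk RNA samples, in which fewer cells of a type and less RNA per cell cannot be told apart.

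The receptors were represented mainly by Notch2 and Notch1 and the ligands mainly by Jag1. Levels of different genes were compared as FPKM, the authors' value scaled for transcript length and library size. Notch2 averaged 20 FPKM over the 6 libraries and lay above 78.0% of all genes in the table. It exceeded Notch1 in 4 of 6 libraries. Notch1 averaged 15 FPKM and Lfng 14.9 FPKM, close to each other, and Notch1 exceeded Lfng in 3 of 6 libraries. Jag1 averaged 11.6 FPKM and lay above Dll4, the next in order, in 6 of 6 libraries. A step down separated these 4 genes from the rest: Dll4 averaged 2.72, Notch3 2.12 and Notch4 1.70 FPKM, and these 3 lie within each other's spread. Dll1, at 0.485 FPKM, and Jag2, at 0.200 FPKM, were the lowest, and Jag2 rested on 12 to 21 counts per library. In the GENCODE annotation of GRCm38, 7 of the 9 genes overlap another annotated gene, 5 of them one on the opposite strand, and none of those 10 partners is in the gene table. Whether counting used strand is not given in the sources used here, so reads of such partners cannot be told apart from those of the 7 genes. Jag1 and Lfng overlap none.

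**Figure D1:**
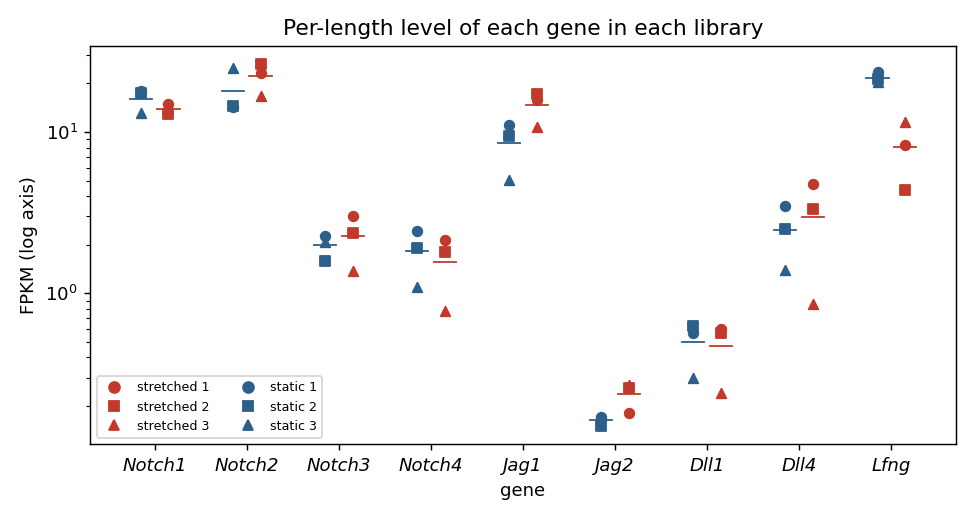
Level of each gene in each library in FPKM on a log axis; colours mark the group, symbols the replicate number and short bars the group means. Notch1, Notch2, Jag1 and Lfng lie between 4.34 and 26.4 FPKM, and Dll1 and Jag2 stay below 1 FPKM in every library.

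The sequence before the transcription start is shown for Lfng, which passed the test, for Jag1, which passed in part of the fits, and for Notch2, which the title names. Each run gives the 250 bases upstream of the RefSeq start on GRCm38.p6, 5′ to 3′ on the gene's own strand. Capitals mark 3 motifs, each searched on both strands: TGGGAA, the core bound by RBPJ, GAGGAA, the core bound by the macrophage factor PU.1, and GGGCGG, a GC box.
Lfng, chr5:140607091-140607340, plus strand: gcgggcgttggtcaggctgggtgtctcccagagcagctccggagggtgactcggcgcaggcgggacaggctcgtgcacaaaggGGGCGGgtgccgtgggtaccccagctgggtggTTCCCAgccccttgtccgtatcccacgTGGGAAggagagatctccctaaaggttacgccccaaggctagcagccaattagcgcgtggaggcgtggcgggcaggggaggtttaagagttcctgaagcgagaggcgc
Jag1, chr2:137116521-137116770, minus strand: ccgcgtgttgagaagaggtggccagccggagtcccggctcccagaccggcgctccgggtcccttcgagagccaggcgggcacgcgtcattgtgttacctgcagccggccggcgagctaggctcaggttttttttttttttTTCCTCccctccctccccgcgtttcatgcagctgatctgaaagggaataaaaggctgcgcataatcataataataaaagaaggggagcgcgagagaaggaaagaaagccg
Notch2, chr3:98013288-98013537, plus strand: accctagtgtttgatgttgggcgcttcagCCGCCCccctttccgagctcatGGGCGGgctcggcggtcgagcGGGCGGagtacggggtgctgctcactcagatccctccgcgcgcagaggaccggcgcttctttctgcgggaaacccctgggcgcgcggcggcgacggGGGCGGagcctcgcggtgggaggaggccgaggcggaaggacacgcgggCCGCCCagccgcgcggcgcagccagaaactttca
Among the 10 upstream windows of the 9 genes (Dll1 has more than 1 annotated start), the RBPJ core was found in that of Lfng alone, against 21.6% of 32851 windows of the same length across the genome. It occurred there at -135 to -130 on the opposite strand and at -108 to -103 on the gene's strand, counted back from the start. The second match is preceded by a G, a form (GTGGGAA) held by 5.42% of windows, and its first 2 bases belong as well to a CACGTG box, which 6.02% of windows hold. GC boxes were found in 6 of the 10 windows against 32.7% of all, with 5 in that of Notch2. The PU.1 core was found in the windows of Notch1, Jag1 and Dll1, against 23.3% of all. TGANTCA, the AP-1 motif, was found in a window of Dll1 (6.75% of all), while TATAAA (12.4% of all) was in none of the 10. These letter matches are a description of the windows, and no binding was measured.

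Lfng was the member called in edgeR without a block. Its 3 static libraries held 47.1, 43.8 and 39.5 CPM and its 3 stretched libraries 18.6, 11.0 and 24.6 CPM. The groups did not overlap, and the stretched libraries differed more among themselves (18.0 ± 6.82 CPM, SD, n = 3) than the static ones (43.5 ± 3.85 CPM, SD, n = 3). In edgeR's quasi-likelihood test the log2 fold change was -1.27 ± 0.27 (SE, adjusted p = 0.0316). It was thus 1 of 9 members called lower, where 5.38% of all tested genes were called lower (15.2% at an unadjusted p under 0.05). Each static library lay above the stretched library of the same replicate number, with log2 ratios of -1.34, -2 and -0.68 for numbers 1 to 3. Lfng lies on chromosome 5 from 140607341 to 140615545 (gene identifier 16848, GRCm38.p6). Without stretched 1, stretched 2, static 1 or static 2 the edgeR adjusted p was 0.0935, 0.0721, 0.0993 and 0.1 at log2 fold changes of -1.29, -1.03, -1.21 and -1.27, in fits that called 0.214%, 0.0229%, 0.184% and 0% of all tested genes lower. Without stretched 3 or static 3 it was 0.0304 and 0.017, where 1.98% and 15.4% were called lower. DESeq2 called Lfng lower with all libraries (adjusted p = 0.000431), where 9.96% of all genes were called lower, and with any 1 library left out, where the share was 5.61%, 4.16%, 7.96%, 3.76%, 3.7% and 16.4% without stretched 1 to 3 and static 1 to 3. Lfng was also called lower with the replicate block (3.16% of all genes), with DESeq2 size factors in edgeR (5.63%), without the filter on low counts (3.85%), by library size alone (10.1%) and by limma with a pseudocount of 0.1 or 1 FPKM (9.33% and 9.28%).

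The other Fringe genes did not pass the test. Rfng (radical fringe) lay at 20.6, 17.8 and 19.1 CPM in stretched 1 to 3 and at 20.9, 19.7 and 27.2 CPM in static 1 to 3, a log2 fold change of -0.24 ± 0.17 (SE, edgeR adjusted p = 0.359). Mfng (manic fringe) was low, at 5.17 to 8.24 CPM in the stretched and 5.52 to 8.40 CPM in the static group (0.04 ± 0.26, SE, edgeR adjusted p = 0.938). On the per-length scale the 3 Fringe genes summed to 23.3, 14.6 and 25.8 FPKM in stretched 1 to 3 and 39.4, 35.4 and 41.5 FPKM in static 1 to 3. Lfng made up 35.9%, 29.7% and 44.8% of that sum in stretched 1 to 3 against 59.7%, 60.5% and 49.1% in static 1 to 3. The shares did not overlap, and they differed by -19.6 percentage points between the group means (two-sided exact permutation p = 0.1, the smallest that 3 against 3 libraries allow). Within replicate numbers 1 to 3 the share differed by -23.8, -30.8 and -4.29 points (exact sign-flip permutation p = 0.25, the smallest that 3 pairs allow).

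Among the ligands, Jag1 had the largest counts and the clearest difference. Jagged1 and Dll4 are both known to be raised in macrophages by inflammatory stimuli. Jag1 stood at 88.6, 111 and 57.6 CPM in stretched 1 to 3 and at 56.3, 48.4 and 24.4 CPM in static 1 to 3. The groups did not overlap, although stretched 3 was barely above static 1. Means were 85.6 ± 26.6 and 43.0 ± 16.6 CPM (SD, n = 3). The log2 fold change was 0.99 ± 0.35 (SE) and did not pass in edgeR (adjusted p = 0.0972; 0.00513 to 0.296 over all alternatives). Jag1 was higher in the stretched library of each replicate number, with log2 ratios of 0.65, 1.19 and 1.24. With the replicate number as a block, Jag1 was called higher at 1.03 ± 0.17 (SE, edgeR adjusted p = 0.0327), as it was by DESeq2 (adjusted p = 0.0334). The DESeq2 call was lost when stretched 1, stretched 2 or static 2 was dropped (DESeq2 adjusted p = 0.14, 0.249 and 0.0885). It held when stretched 3, static 1 or static 3 was dropped (DESeq2 adjusted p = 0.0125, 0.0269 and 0.0448). In edgeR with no block, dropping any 1 library left Jag1 uncalled (edgeR adjusted p = 0.0815 to 0.296). Without the block 0 of 9 members were called higher by edgeR, 1 had an unadjusted p under 0.05 and DESeq2 called 1, where 6.55% of all tested genes were called higher by edgeR (16.5% at an unadjusted p under 0.05), 5.86% with the block and 10.8% by DESeq2. Jag1 lies on chromosome 2 from 137081451 to 137116520 (gene identifier 16449, GRCm38.p6).

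The Delta ligands and Jag2 did not pass. Dll4, a Delta ligand prominent in vessels, stood at 16.3, 13.1 and 2.82 CPM in stretched 1 to 3 and at 10.7, 7.98 and 4.15 CPM in static 1 to 3. The groups overlapped, and in each the third library was the lowest (log2 fold change 0.49 ± 0.60, SE, edgeR adjusted p = 0.612). With 1 library left out the Dll4 fold change in edgeR ran from 0.05 without stretched 1 to 0.92 without stretched 3. Dll1 lay at 2.05, 2.24 and 0.863 CPM in stretched 1 to 3 and at 1.81, 2.02 and 0.904 CPM in static 1 to 3, again with the third library lowest in each group (0.11 ± 0.47, SE, edgeR adjusted p = 0.894). Jag2 lay at 0.842, 1.43 and 1.15 CPM in stretched 1 to 3 and at 0.640, 0.656 and 0.691 CPM in static 1 to 3. Its groups did not overlap, but the difference of 0.77 ± 0.35 on the log2 scale (SE) did not pass in edgeR (adjusted p = 0.179). In all, 3 of the 9 members (Lfng, Jag1 and Jag2) had groups that did not overlap, as did 36.7% of all tested genes. The median log2 fold change of the 9 was 0.39, against -0.002 over all tested genes. On GRCm38.p6 Dll4 lies on chromosome 2 from 119325784 to 119335666, Dll1 on chromosome 17 from 15367354 to 15376932 and Jag2 on chromosome 12 from 112907803 to 112929812.

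**Figure D2:**
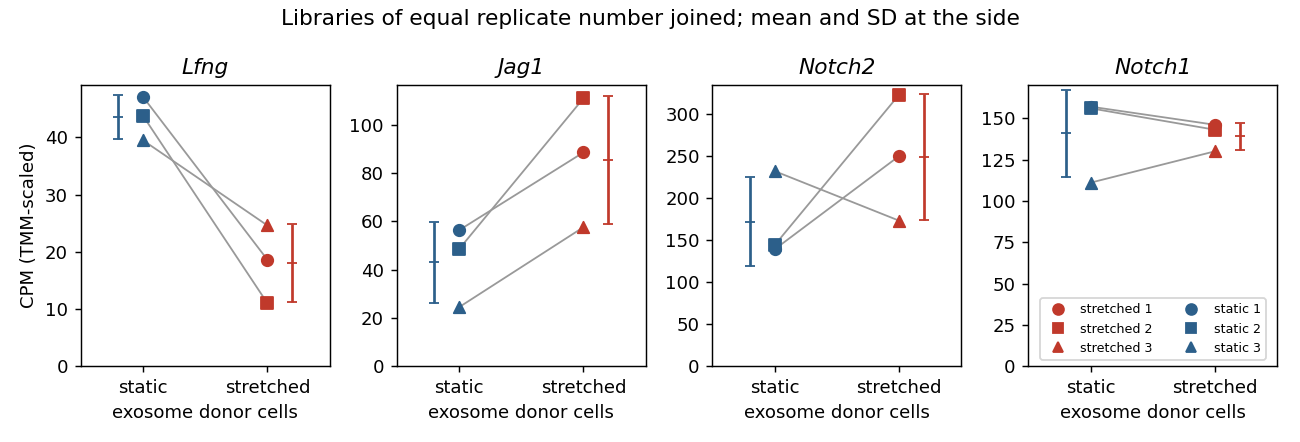
TMM-scaled CPM of 4 genes, static on the left and stretched on the right of each panel; lines join libraries of equal replicate number, and the bars at the side give the mean and SD of 3 libraries. Lfng falls and Jag1 rises along every line, whereas the line of replicate 3 runs against the others for Notch2 and Notch1.

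Notch2, the receptor with the highest mean level, stood at 250, 323 and 173 CPM in stretched 1 to 3 and at 139, 144 and 232 CPM in static 1 to 3. The groups overlapped, because static 3 lay above stretched 3 and close to stretched 1. The log2 ratios within replicate numbers were 0.85, 1.17 and -0.43. The means were 249 ± 75.2 and 172 ± 52.6 CPM (SD, n = 3), and the log2 fold change of 0.53 ± 0.29 (SE) did not pass in edgeR (adjusted p = 0.243; 0.00436 to 0.675 over all alternatives). Leaving out stretched 3 and static 3 together, which was chosen after the data were seen, gave 1 ± 0.16 (SE, edgeR adjusted p = 0.00436), but in that fit of 2 against 2 libraries 21.0% of all tested genes were called higher and 20.6% lower. Without static 3 alone it was 0.81 (edgeR adjusted p = 0.0511, and called by DESeq2, at 16.1% and 18.2% of all genes called higher), and without stretched 2 it was 0.27 (edgeR adjusted p = 0.624). Socs1, named beside Notch2 in the title, had another pattern: its 6 libraries held 62.9, 50.6 and 52.2 CPM (stretched 1 to 3) and 13.6, 17.4 and 12.0 CPM (static 1 to 3), with no overlap. Notch2 lies on chromosome 3 from 98013538 to 98150367 (gene identifier 18129, GRCm38.p6).

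Notch1, the receptor best known for its role in T-cell development, lay at 146, 143 and 130 CPM in stretched 1 to 3 and at 157, 156 and 111 CPM in static 1 to 3. The stretched libraries fell within the range of the static ones (log2 fold change -0.02 ± 0.17, SE, edgeR adjusted p = 0.955). Notch3, a receptor of vascular mural cells, lay at 24.5, 21.8 and 10.8 CPM in stretched 1 to 3 and at 16.9, 12.0 and 14.7 CPM in static 1 to 3, with overlapping groups (0.39 ± 0.30, SE, edgeR adjusted p = 0.413; 0.16 without stretched 1 and 0.64 without stretched 3). Notch4, a receptor of endothelial cells, lay at 14.3, 13.7 and 5 CPM in stretched 1 to 3 and at 14.8, 11.7 and 6.38 CPM in static 1 to 3. Its means were equal to 3 digits, at 11.0 ± 5.20 and 11.0 ± 4.27 CPM (SD, n = 3), and the difference between replicate 3 and the other numbers was larger than the difference between groups within any number. In the fit without both replicate 3 libraries, Notch3, Dll4 and Jag1 were called higher along with Notch2, at 0.67, 0.63 and 0.91 (edgeR adjusted p = 0.0304, 0.0455 and 0.00513), and Lfng was lower at -1.63 (edgeR adjusted p = 0.00322). That fit was chosen after the data were seen, and it called 21.0% of all tested genes higher and 20.6% lower. On GRCm38.p6 Notch1 lies on chromosome 2 from 26457902 to 26503822, and Notch3 and Notch4 lie on chromosome 17 from 32120820 to 32166896 and from 34564286 to 34588543.

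**Figure D3:**
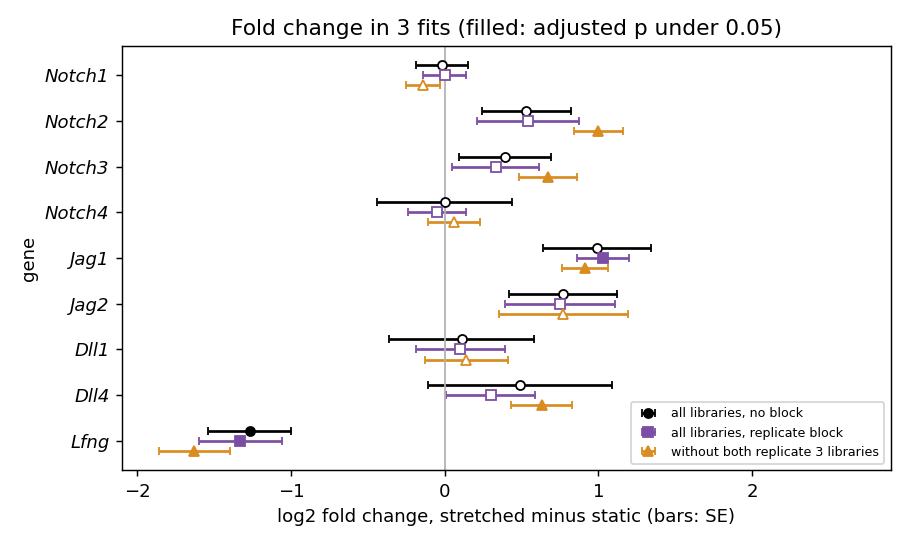
Log2 fold change of each gene, stretched minus static, with its SE, in the fit of all libraries, the fit with the replicate number as a block and the fit without both replicate 3 libraries; filled symbols have an adjusted p under 0.05. Lfng is filled in all 3 fits, Jag1 in 2 of them, and Notch2, Notch3 and Dll4 in the last alone. The last fit was chosen after the data were seen, and it called 21.0% of all tested genes higher and 20.6% lower.

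The make-up of each class was described by shares of its summed FPKM. Notch1 and Notch2 together gave 87.2% to 93.4% of the receptor sum in every library. Notch2 alone gave 53.5%, 60.7% and 50.9% in stretched 1 to 3 against 38.7%, 40.9% and 60.3% in static 1 to 3. Notch1 was therefore the larger of the pair in static 1 and static 2, and Notch2 was the larger in the other 4 libraries. The group means of 55.0% and 46.6% did not differ by more than the spread (two-sided exact permutation p = 0.3, the smallest possible being 0.1; exact sign-flip permutation p = 0.5 over the 3 pairs). Their difference of 8.4 points was 4.41 without static 1, 5.53 without static 2, 5.55 without stretched 2 and 15.2 without static 3. Jag1 gave 74.1%, 80.5% and 88.7% of the ligand sum in stretched 1 to 3 against 72.5%, 74.1% and 72.9% in static 1 to 3 (two-sided exact permutation p = 0.1; exact sign-flip permutation p = 0.25 over the 3 pairs). The difference of 7.93 points was 4.15 without stretched 3. Its share in stretched 3 went with a Dll4 share of 7.11%, against 15.6% to 22.6% in the other 5 libraries.

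**Figure D4:**
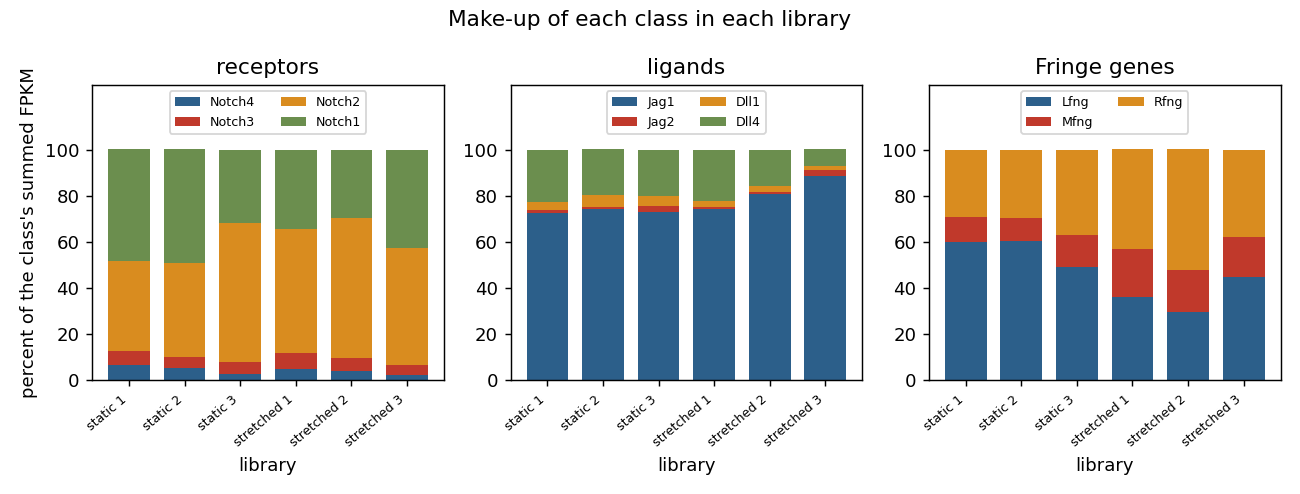
Share of each gene in the summed FPKM of its class, by library, for the 4 receptors, the 4 ligands and the 3 Fringe genes. The Lfng share is at most 44.8% in the stretched libraries and at least 49.1% in the static ones.

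Several members were lowest in the replicate 3 library of each group. Notch1, Notch4, Jag1, Dll1 and Dll4 were lower in stretched 3 than in the other stretched libraries and lower in static 3 than in the other static libraries, as were 17% of all tested genes. So were 7 of 8 endothelial markers. VE-cadherin (Cdh5) stood at 73.9, 51.2 and 9.37 CPM in stretched 1 to 3 and at 74.2, 62.2 and 19.0 CPM in static 1 to 3, and endomucin (Emcn) at 61.3, 42.0 and 8.40 CPM and 62.9, 43.4 and 6.70 CPM. The 8 endothelial markers summed to 396, 331 and 150 CPM in stretched 1 to 3 and to 306, 261 and 146 CPM in static 1 to 3, and none of them was at 0. In edgeR 0 of the 8 passed in either direction, where 6.55% of all tested genes were called higher and 5.38% lower. Kdr and Vwf alone of the 8 rose with an unadjusted edgeR p below 0.05, as did 16.5% of all tested genes. DESeq2 called 1 of the 8 higher, against 10.8% of all genes. The edgeR fit with the replicate block also called 1 higher, against 5.86% of all genes. With the block that was Kdr, a vascular endothelial growth factor receptor gene, at 45.7, 46.5 and 25.0 CPM in stretched 1 to 3 and 22.7, 20.9 and 13.5 CPM in static 1 to 3. Not all markers shared the pattern of Cdh5 and Emcn: Erg was highest of the static group in static 3, and Kdr differed between the groups within every replicate number. Dll4 had as its nearest profile over the 6 libraries the cadherin gene Cdh13, followed by Mcam and Flt4, a vascular endothelial growth factor receptor, an addition made after the values were seen. The same search for Jag1, added likewise, gave Ggta1, Rnf149 and F11r. The part of endothelial RNA in the levels of Dll4, Notch4 and Dll1 was not tested. The stromal or mural markers summed to 6365, 5009 and 7080 CPM in stretched 1 to 3 and to 4416, 3942 and 5688 CPM in static 1 to 3, and their part in the levels of Jag1 and Notch3 was not tested.

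**Figure D5:**
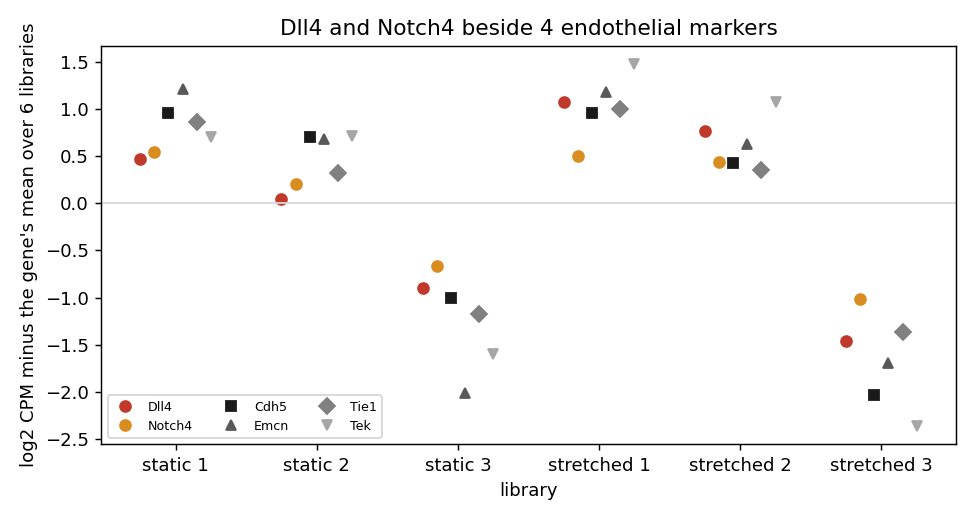
Log2 CPM of Dll4, Notch4 and 4 of the 8 endothelial markers, picked after their values were seen, in each library, minus the gene's mean over the 6 libraries. All 6 genes lie below their mean in static 3 and stretched 3 and above it in the other 4 libraries. Because of how the markers were picked, this likeness is no test of an endothelial source. Markers not shown differed: Erg was highest of the static group in static 3. Vwf stood at 52.3 CPM in stretched 3, against 49.3 and 50.2 CPM in static 1 and 2.

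Profiles close to those of Notch2 and Lfng were found by the root mean square distance between log2 CPM values, centred on each gene's mean, over 6 libraries and 10214 genes. Nearest to Notch2 were Atp1b3, a sodium pump subunit gene, Nr2c2, an orphan nuclear receptor gene, and Sgpp1, a sphingosine phosphate phosphatase gene, at distances of 0.0485, 0.0613 and 0.0659 (median over all genes 0.516). Atp1b3 held 351, 473 and 263 CPM in stretched 1 to 3 and 204, 209 and 318 CPM in static 1 to 3, so that static 3 was high there as well. Among the nearest to Lfng were Gm14548 and Uros, a heme synthesis enzyme gene, at 0.118 and 0.181 (median over all genes 0.785). The nearest of 10214 genes lie below the median by construction, so these distances describe the profiles and test nothing.

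The transcript table held 19 transcripts of the 9 genes, and 12 passed the filter. Notch1, Notch2, Dll4 and Lfng had a single transcript each, so their transcript counts equal their gene counts. None of the 12 was called by edgeR in the transcript table (0 higher and 0 lower, with 1 and 1 at an unadjusted p under 0.05), where 0.00338% of 29604 transcripts were called higher and 0% lower. DESeq2 called 0 higher and 1 lower, against 4.69% and 4.55% of all transcripts. Lfng, with the same counts, had an adjusted p of 0.136 in edgeR there. Jag1 came almost wholly from its curated RefSeq transcript, with 97.8% to 99.8% of its counts in each library. Notch4 was divided unevenly: a predicted transcript took 54.5% and 37.2% of its counts in stretched 1 and 2 and 17.7% in static 1, and was listed at 0 in the other 3 libraries (log2 fold change 2.25 ± 2.41, SE, edgeR adjusted p = 0.765). The curated Notch3 transcript held 57% to 86.3% of the counts in the stretched and 61.8% to 85.8% in the static group. How the authors divided reads between overlapping transcripts is not given in the sources used here, and these splits are estimates.

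Of 63 other Notch pathway genes, 57 were tested. With exosomes of stretched cells 5 were higher and 3 lower in edgeR, against 6.55% and 5.38% of all tested genes, with a median log2 fold change of 0.038 against -0.002 over all genes. The receptor cleavage list had 2 of 10 higher and 0 lower. Furin, the protease that cuts the receptor precursor, stood at 429, 537 and 254 CPM in stretched 1 to 3 and at 107, 111 and 149 CPM in static 1 to 3 (1.73 ± 0.29, SE, edgeR adjusted p = 0.0198). Aph1c, which encodes a gamma-secretase subunit and has the close paralog Aph1b, so that its counts are uncertain, rose by 2.03 ± 0.44 (SE, edgeR adjusted p = 0.032). The 2 most abundant of that list per length, Psenen and Ncstn, both gamma-secretase subunit genes, did not pass, at 0.28 and -0.07 (edgeR adjusted p = 0.209 and 0.782).

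Genes of receptor trafficking and turnover had 3 of 13 higher and 0 lower in edgeR, against 6.55% and 5.38% of all tested genes. Numbl, which encodes an adaptor related to the Notch inhibitor Numb, held 25.4 to 29.8 CPM in the stretched and 13.1 to 15.2 CPM in the static group (0.95 ± 0.14, SE, edgeR adjusted p = 0.0156). The ubiquitin ligase gene Nedd4l rose by 1.26 ± 0.26 (SE, edgeR adjusted p = 0.0276) and the Deltex gene Dtx2 by 1.08 ± 0.26 (SE, edgeR adjusted p = 0.0418). Dtx3l, among the most abundant of this list, did not pass, at 0.26 (edgeR adjusted p = 0.499). In the ligand endocytosis list 1 of 7 was called lower in edgeR (5.38% of all tested genes) and 0 higher. It was Neurl3, a gene of the neuralized family of ubiquitin ligases. Neurl3 fell from 149, 170 and 168 CPM in static 1 to 3 to 75.4, 91.7 and 85.1 CPM in stretched 1 to 3 (-0.95 ± 0.14, SE, edgeR adjusted p = 0.0156). Epn1, an endocytic adaptor gene, did not pass at 0.10 (edgeR adjusted p = 0.647).

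Against 5.38% of all tested genes lower and 6.55% higher in edgeR, 2 of 15 nuclear genes were lower and 0 higher. Ctbp1, a corepressor gene, was among them, at 94 to 112 CPM in the stretched and 155 to 171 CPM in the static group, without overlap (-0.70 ± 0.13, SE, edgeR adjusted p = 0.0235). Rbpj, the DNA-binding partner of the cleaved receptors, stood at 598, 722 and 431 CPM in stretched 1 to 3 and at 457, 435 and 397 CPM in static 1 to 3. Those groups overlapped, and it did not pass (0.44 ± 0.22, SE, edgeR adjusted p = 0.202). Of 6 direct target genes 4 were tested. With all libraries 0 were called in either direction by edgeR (DESeq2 called 0, and 1 was higher at an unadjusted p under 0.05). Hes1 lay at 9.56, 8.30 and 7.30 CPM in stretched 1 to 3 and at 7.20, 4.92 and 3.35 CPM in static 1 to 3, without overlap but not past the threshold (0.70 ± 0.30, SE, edgeR adjusted p = 0.155), and Hey1 lay between 1.28 and 6.29 CPM. Heyl, named after its values were seen, went the other way within every replicate number, at 2.59, 2.52 and 0.518 CPM in stretched 1 to 3 and at 6.24, 4.65 and 1.81 CPM in static 1 to 3. Its groups overlapped and it did not pass (-1.18 ± 0.64, SE, edgeR adjusted p = 0.244, and 0.0537 with the replicate block). Heyl was called lower without both replicate 3 libraries (edgeR adjusted p = 0.0148), where 20.6% of all genes were called lower. DESeq2 called Heyl lower without static 3 (16.4% of all genes lower) and Hes1 higher without static 1 (6.09% of all genes higher). The other glycosyltransferases had 0 of 7 called by edgeR (DESeq2 called 0, and 0 had an unadjusted p under 0.05), with Poglut1 and Rfng the most abundant. The other ligands had 1 tested gene, Dner, which was not called (edgeR adjusted p = 0.857), and Dll3 stayed at 0.204 to 0.907 CPM.

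The counts of pathway genes depended on single libraries. The number higher in edgeR was 0, 0, 3, 0, 0 and 13 without stretched 1, 2 and 3 and static 1, 2 and 3 in that order, with 7, 8, 12, 10, 7 and 17 at an unadjusted p under 0.05. The number lower was 0, 0, 3, 0, 0 and 5, with 7, 6, 5, 6, 5 and 9 at an unadjusted p under 0.05. DESeq2 called 5, 5, 8, 6, 5 and 15 higher and 3, 2, 5, 2, 2 and 6 lower in the same order. At an unadjusted p under 0.05 the share of all genes was 13.1%, 11.1%, 14.6%, 11.7%, 11.7% and 23.3% higher and 11.4%, 11%, 15.7%, 10.3%, 10.1% and 21.5% lower in edgeR. The share of all genes called lower was 0.214%, 0.0229%, 1.98%, 0.184%, 0% and 15.4% in edgeR and 5.61%, 4.16%, 7.96%, 3.76%, 3.7% and 16.4% in DESeq2. The share called higher was, in the same order, 1.02%, 0.252%, 4.27%, 0.489%, 0% and 16.1% in edgeR and 6.85%, 5.53%, 9.74%, 6.09%, 6.23% and 18.2% in DESeq2.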

How the data were processed

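RNA of 6 BMDM samples, 3 per group, was sequenced. The gene and transcript tables hold estimated counts and a second value that was read as FPKM from the deposited numbers: for 8955 well-counted genes, the length implied by count and FPKM varied between libraries by a median CV of 0.477%. Reads were aligned to mm10 (GRCm38), per the submitters' processing notes; for the aligner, counting tool and strand setting the labels name nothing. Of the deposited estimated counts, 8.66% were not whole, and all were rounded before testing. Genes passing edgeR's filterByExpr with a minimum count of 10 were tested (12892 of 16906), with TMM scaling, the quasi-likelihood F-test of edgeR 4.0.16 (R 4.3.3) and Benjamini-Hochberg adjustment over all tested genes, at a threshold of 0.05, on all 6 libraries without a block. The fits were checked on simulated counts.

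Alternatives were DESeq2 1.42.0, its size factors in edgeR, library size alone, no filter, limma 3.58.1 on log2(FPKM + 0.1) and log2(FPKM + 1), the replicate number as a block, and each library left out. Leaving out both replicate 3 libraries, and leaving each library out with DESeq2, were added after the data were seen. The replicate numbers come from the sample titles. Deviations from the group means correlated at 0.286, 0.183 and 0.182 for equal numbers and at -0.24 to 0.109 for unequal ones. The numbers were therefore treated as pairing the libraries, although these correlations are weak and no label says what a number marks. The first fit named stays without the block, and the blocked value is given where it changes a call. Shares were compared by two-sided exact permutation tests over libraries and by sign-flips over pairs. The 9 genes and the pathway and marker lists were chosen with earlier results of these data known. In each pathway list the called genes and the 2 highest in FPKM were named; some genes that these rules select are not reported here. Promoter sequences come from RefSeq on GRCm38.p6.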

Additional observations from a re-analysis of the deposited data

How the results depend on the processing

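Lfng kept its direction in all 20 alternatives and was called in 16; the 4 others were edgeR fits without stretched 1, stretched 2, static 1 or static 2, which also have fewer libraries. The number of members called higher was 0 in the edgeR fit and 1 with the replicate block and with DESeq2 (Jag1), and it ran from 0 to 4 over the fits that left libraries out, where 0% to 21% of all genes were called higher and the 4 came with the 21%. The number called lower ran from 0 to 1 over those fits, and DESeq2 called 1 transcript lower. Other pathway genes higher numbered 8 with DESeq2 (10.8% of all genes) and 0 to 18 with libraries left out (0% to 21%). Those lower numbered 5 with library size alone, with DESeq2 and with limma at pseudocounts of 0.1 and 1. There 10.1%, 9.96%, 9.33% and 9.28% of all genes were called lower. With libraries left out, those lower numbered 0 to 7, where 0% to 20.6% of all genes were called lower. With the replicate block 6 other pathway genes were higher, Dtx3 among them, and 2 lower, against 5.86% and 3.16% of all genes. Signs changed for 3 members that no setting called: Notch1 ran from -0.17 to 0.06, Notch4 from -0.28 to 0.34 and Dll1 from -0.17 to 0.43 with libraries left out, and Dll1 was -0.09 with library size alone and -0.10 and -0.03 with limma. Why these values moved was not tested. Library size alone shifted the median of all genes to -0.19, and limma to -0.18 and -0.14, so those fold changes are relative to a lower midpoint. The share differences kept their sign in 7 settings that could change it, but that of Notch2 ran from 4.41 to 15.2 points and that of Jag1 from 4.15 to 11.4 with 1 library left out. Dll1 and Jag2 rest on at most 37 counts per library.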

Other observations

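Markers of other cell types, summed per library in CPM and given for stretched 1 to 3 and then static 1 to 3, were described beside the Notch genes. Their calls stand against 6.55% of all tested genes called higher and 5.38% called lower in edgeR. With the replicate block those shares were 5.86% and 3.16%. Dendritic cell markers summed to 160, 164 and 54.9 and to 117, 139 and 76.3 CPM. Itgax carried most of that sum and was low in both replicate 3 libraries, whereas each of the other 5 was highest of the static group in static 3. Of the 6, the chemokine receptor gene Ccr7 was called higher by edgeR. Epithelial markers, relevant to the exosome donor cells, summed to 40, 35.9 and 21.3 and to 11.5, 15.2 and 15.9 CPM. Most of that was Epcam, at 36.9, 31.2 and 13.4 and at 8.53, 12 and 9.63 CPM. Of the 3 epithelial genes tested, Epcam was called higher by edgeR but not with the replicate block (adjusted p = 0.0605), Cdh1 and Ager differed by 0.14 each on the log2 scale (edgeR adjusted p = 0.866 and 0.816), and 4 of the 8 in the table stayed under 1 CPM in every library. Monocyte markers summed to 3012, 3125 and 3272 and to 2020, 2037 and 3834 CPM, so static 3 was the highest there, as it was the highest static library for Notch2. Mast cell or basophil markers did so too, at 48.0, 60.1 and 56.3 and at 26.8, 36.0 and 71.1 CPM. Lymphocyte markers summed to 56.2, 49.3 and 43.8 and to 40.7, 42.4 and 73.8 CPM, with Ms4a1, 1 of 7 tested, called lower by edgeR. Among the 8 macrophage markers Mertk was called higher and C1qa lower by edgeR, and neither with the replicate block (adjusted p = 0.056 and 0.0601). The part of these cells in the levels of the Notch genes was not tested.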
